A study of Mus musculus with 4 samples.

Results

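Hox genes encode homeodomain transcription factors that assign positional identity along the body axis, and they lie in 4 clusters, Hoxa to Hoxd, numbered by paralogue from the 3′ end of each cluster. In embryos, retinoic acid bound to its receptors switches on the 3′ Hox genes, with Hoxb1 among the classical targets. Meis and Pbx proteins are homeodomain factors of the TALE class that bind DNA together with Hox proteins. In blood, Hoxb4, Hoxa9 and Meis1 are known for their action in stem and progenitor cells, and most Hox genes are switched off as myeloid cells mature.

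The genes described here were taken by name: every probe set whose annotation gave exactly 1 symbol, that symbol being a Hoxa, Hoxb, Hoxc or Hoxd gene, a Meis gene or a Pbx gene. This gave 43 probe sets of the 41345 in the deposited table, for 42 genes of 22180: 36 Hox, 3 Meis and 3 Pbx genes. Hoxa11 and Hoxd4 had probe sets named only together with another gene, and are not among the 42. Hoxb5 had 2 probe sets, and the brighter one stands for the gene.

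The cells were Ly6C-high monocytes. Marrow from 3 mice was pooled, the monocytes were enriched and sorted, and they were cultured for 24 h with GM-CSF and interleukin 4, both at 20 ng per ml, which promote dendritic cell differentiation. There were 2 arrays of cells given 100 nM all-trans retinoic acid from the start of culture and 2 arrays of cells given the solvent DMSO. The labels give no strain, age or sex of the mice, and do not say whether the replicates came from separate cultures, so the p-values rest on a spread between arrays that may be technical only. The study asked which genes retinoic acid changes in monocytes under these conditions, and for these families that means whether classical embryonic targets of retinoic acid respond.

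Values are log2 of the deposited RMA intensities. RMA corrects background, equalises the arrays and summarises the probes of a probe set, and it understates differences of dim genes. Array medians were 80.0 and 81.8 with retinoic acid, against 81.3 and 81.2 with DMSO, on the linear scale. No detection calls were given, so the 95th percentile of the mean level of 1405 olfactory and vomeronasal receptor probe sets, 6.35 on the log2 scale, serves as a guide to dim levels. Differences are given as retinoic acid minus DMSO, with the moderated standard error (SE) from limma, and a gene is called where limma's p, adjusted by Benjamini-Hochberg over 39720 probe sets, is under 0.05. In the whole table, 0.904% of probe sets were called higher and 1.19% lower, or 2.09% in all, and among genes the share was 3.07%. These counts leave out 1625 unnamed probe sets holding 1 constant value on all arrays; with them kept, limma called 0 probe sets (6260 at an unadjusted p under 0.05). The number of arrays limits the precision, and 0.333 is the smallest p that exact permutation of these 4 arrays allows.

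The sequences that bear on the comparison are the stretches just upstream of the called member, of Hoxb1, and of 2 retinoic acid targets outside the Hox clusters that responded. Each is the 250 bases before the gene start in RefSeq (GRCm38.p6), read 5′ to 3′ on the gene's strand. Capitals mark, in Cyp26a1 and Rarb, a direct repeat of the retinoic acid receptor binding sequence with a spacing of 5 bases, in Hoxb4 a single copy of it, and in Hoxb1 a match to the Pbx-Hox motif TGATNNAT. In Cyp26a1 and Hoxb4 the match lies on the opposite strand.
Cyp26a1, chr19:37697558-37697807, plus strand: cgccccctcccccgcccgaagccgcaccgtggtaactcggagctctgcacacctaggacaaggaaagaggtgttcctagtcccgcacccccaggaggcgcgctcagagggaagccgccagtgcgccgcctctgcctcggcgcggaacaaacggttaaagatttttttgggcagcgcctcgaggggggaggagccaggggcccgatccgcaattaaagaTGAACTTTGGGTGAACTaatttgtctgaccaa
Rarb, chr14:16575477-16575726, minus strand: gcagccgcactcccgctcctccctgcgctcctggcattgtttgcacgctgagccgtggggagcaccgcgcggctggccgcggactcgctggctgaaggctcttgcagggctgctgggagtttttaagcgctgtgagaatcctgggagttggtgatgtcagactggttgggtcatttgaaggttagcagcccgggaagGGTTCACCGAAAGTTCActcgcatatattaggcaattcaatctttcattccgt
Hoxb4, chr11:96318017-96318266, plus strand: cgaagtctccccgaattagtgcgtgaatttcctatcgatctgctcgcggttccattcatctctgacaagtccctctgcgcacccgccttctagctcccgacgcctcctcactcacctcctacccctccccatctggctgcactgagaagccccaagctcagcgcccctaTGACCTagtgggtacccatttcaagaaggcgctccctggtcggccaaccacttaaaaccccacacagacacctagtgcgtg
Hoxb1, chr11:96365508-96365757, plus strand: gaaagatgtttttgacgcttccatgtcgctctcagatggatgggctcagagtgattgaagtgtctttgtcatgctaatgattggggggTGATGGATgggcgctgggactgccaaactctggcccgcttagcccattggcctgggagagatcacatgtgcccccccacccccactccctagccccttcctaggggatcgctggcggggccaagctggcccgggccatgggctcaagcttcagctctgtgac

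Of the 42 genes, 1 rose and none fell. The gene that rose was Hoxb4, whose forced expression expands blood stem cells. Its log2 intensity was 7.09 and 7.16 in the retinoic acid arrays, against 6.24 and 6.29 in the DMSO arrays. Both retinoic acid arrays were high and both DMSO arrays low, with a gap far wider than the distance between replicates. The difference was 0.86 ± 0.08 (log2, SE), a 1.82-fold rise (95% interval 1.58 to 2.10; limma adjusted p = 0.0184). Hoxb4 lay above the dim level with retinoic acid and under it with DMSO, so its fold is against a dim value. With retinoic acid it was still under the 99th percentile of the receptor probe sets, 7.33.

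The call of Hoxb4 rests on few arrays and on the choice of probe sets tested. Its difference was 0.83 to 0.90 in each of the 4 fits that left out 1 array. The limma adjusted p was 0.109 when retinoic acid replicate 1 was left out and 0.125 when replicate 2 was. It was 0.146 when DMSO replicate 1 was left out and 0.152 when replicate 2 was. With the constant probe sets kept the limma adjusted p was 0.0704, and with the replicate number as a block 0.0894. It stayed under 0.05 with only probe sets of 1 symbol (0.00133). With another variance prior, normalization or pseudocount it was 0.0163 to 0.0193. The count of 1 of 43 probe sets called higher stands beside 0.904% of all probe sets, and 1 gene more or less decides it, so the share called shows nothing particular to these families.

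**Figure D1:**
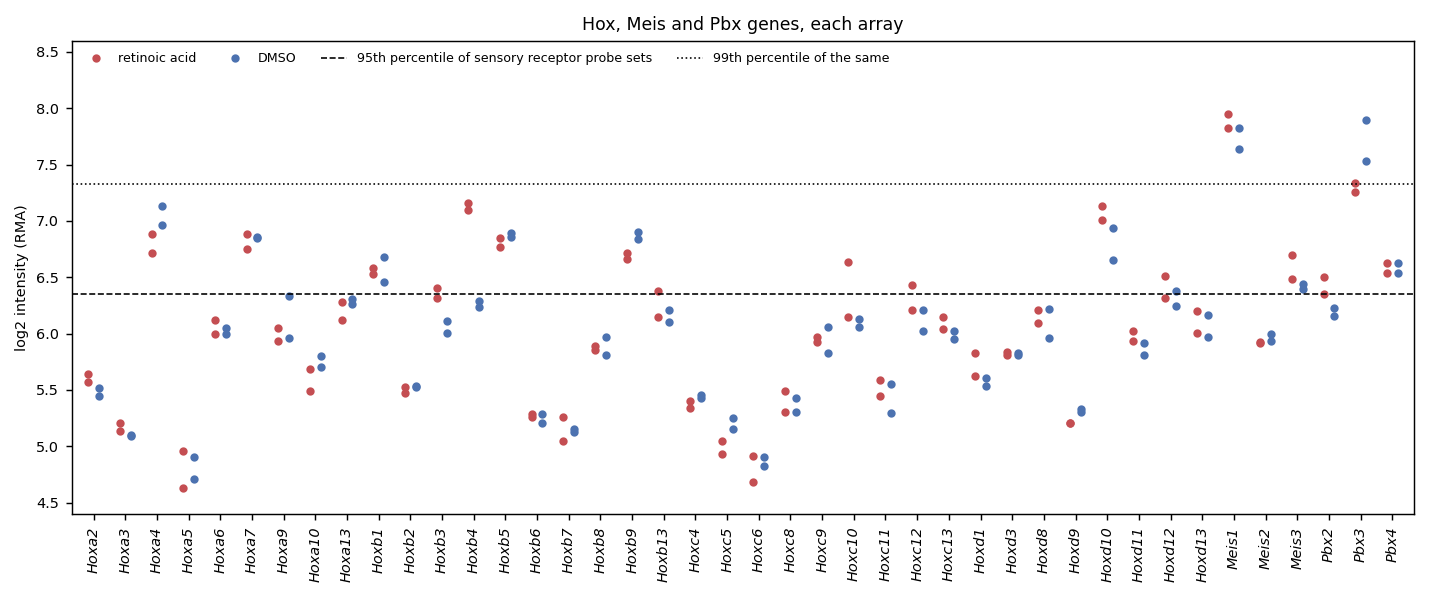
Log2 intensity (RMA) of the 42 Hox, Meis and Pbx genes on each array, with the 2 retinoic acid arrays in red to the left of the 2 DMSO arrays in blue; the dashed and dotted lines are the 95th and 99th percentiles of 1405 olfactory and vomeronasal receptor probe sets. Most genes lie under the dashed line, and Hoxb4 is the gene whose red points stand clearly above its blue ones.

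Most of these genes were dim in both treatments. In 27 of 42 genes, 26 of them Hox genes, the mean of neither group exceeded the dim level (beside 9121 of all 22180 genes). In the other 15, at least 1 group mean did: Hoxa4, Hoxa7, Hoxb1, Hoxb3, Hoxb4, Hoxb5, Hoxb9, Hoxc10, Hoxd10, Hoxd12, Meis1, Meis3, Pbx2, Pbx3 and Pbx4. With the 99th percentile as the guide the number was 2, Meis1 and Pbx3. Taking the mean over all 4 arrays, 12 of the 42 genes were above the dim level and 30 were not. Among all genes, 5.16% of those above this level were called and 0.234% of those not above it. This mean includes the retinoic acid arrays, so a gene that rises far enough from a dim level counts as above it, as Hoxb4 does. The 2 shares therefore cannot show how well a rise from a dim level would be seen. In bulk samples of this kind, fewer cells that express a gene and less RNA per cell cannot be told apart.

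Hoxb1, the 3′-most gene of its cluster and an early target of retinoic acid in the embryonic hindbrain, did not pass. Its log2 intensity was 6.53 and 6.59 with retinoic acid, against 6.68 and 6.46 with DMSO. The groups overlapped, since the retinoic acid arrays lay between the DMSO arrays. The difference was -0.01 ± 0.11 (log2, SE), and the 95% interval of the fold was 0.82 to 1.20 (limma adjusted p = 0.98). Hoxb1 was only just above the dim level in both groups.

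The other genes of paralogue groups 1 and 2 that could be measured were Hoxd1, Hoxa2 and Hoxb2, which act with Hoxb1 in patterning of the hindbrain or the tissues it supplies. Hoxd1 was at 5.63 and 5.83 with retinoic acid, against 5.61 and 5.54 with DMSO, and differed by 0.16 ± 0.10. Hoxa2 was at 5.64 and 5.57 with retinoic acid, against 5.52 and 5.45 with DMSO, and differed by 0.12 ± 0.08. Hoxb2 was at 5.52 and 5.47 with retinoic acid, against 5.54 and 5.52 with DMSO, and differed by -0.03 ± 0.08. None of the 3 was called (limma adjusted p = 0.604, 0.611 and 0.906), and all were under the dim level on every array. For Hoxd1 and Hoxa2 both retinoic acid arrays were above both DMSO arrays, by less than 0.1 at the nearest points.

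Within the Hoxb cluster the second largest difference was that of Hoxb3, whose RefSeq gene span (chr11:96307101-96347930) contains that of Hoxb4 (chr11:96318267-96321638). Hoxb3 was at 6.32 and 6.40 with retinoic acid, against 6.12 and 6.00 with DMSO. The groups did not overlap, and the difference was 0.30 ± 0.09, which limma did not call (adjusted p = 0.248; unadjusted p = 0.0206). A probe set annotated to both Hoxb3 and Hoxb2 was at 5.94 and 6.21 with retinoic acid, against 5.80 and 5.73 with DMSO, a difference of 0.31 ± 0.12 (limma adjusted p = 0.362). A probe set annotated to both Mir10a and Hoxb4 was far dimmer, at 4.01 and 4.02 with retinoic acid, against 3.92 and 3.91 with DMSO, and differed by 0.10 ± 0.07 (limma adjusted p = 0.647). Hoxb3 and Hoxb4 overlap, and whether probes of one read transcripts of the other was not tested.

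Elsewhere in the cluster the differences ran from -0.19 to 0.11. Hoxb5 was at 6.77 and 6.85 with retinoic acid, against 6.86 and 6.89 with DMSO, and its second probe set differed by 0.001 ± 0.077. Hoxb9 was at 6.71 and 6.66 with retinoic acid, against 6.90 and 6.84 with DMSO, a difference of -0.19 ± 0.08 (limma adjusted p = 0.422). Whether the rise of Hoxb4 differs from the value of any neighbour was not tested. Over the 10 Hoxb genes the median difference was 0.003.

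**Figure D2:**
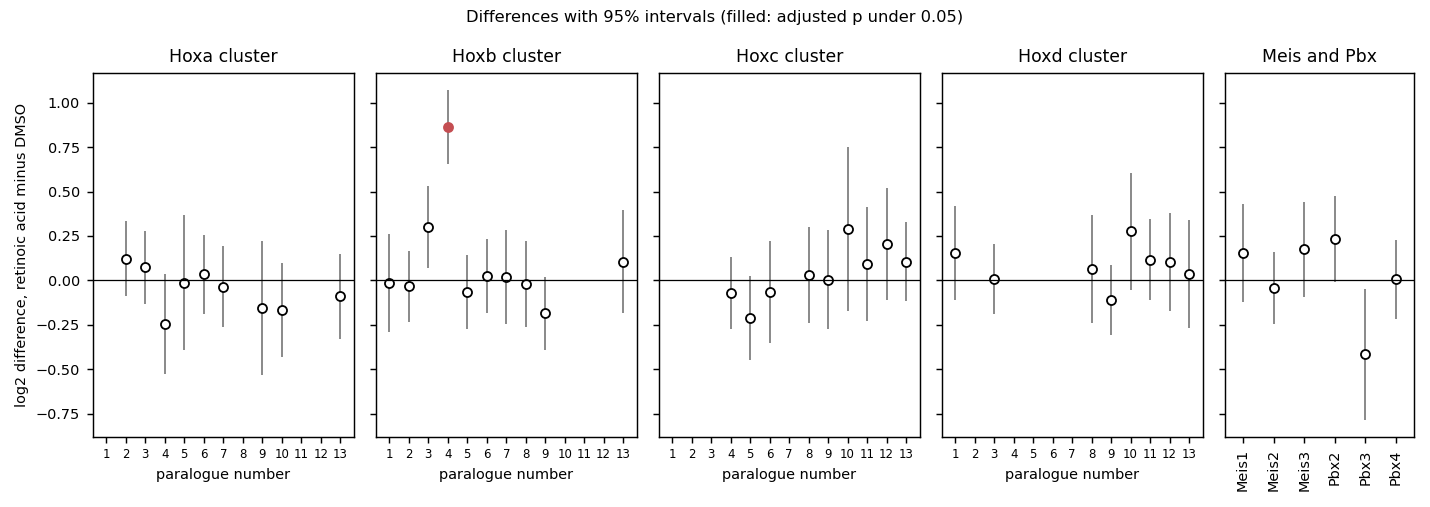
Log2 difference, retinoic acid minus DMSO, of each gene with its 95% interval from limma; Hox genes are placed by paralogue number within their cluster, and Meis and Pbx genes stand in the panel on the right. Hoxb4 at 0.86 is the filled point, the gene called, and Pbx3 at -0.42 is the lowest.

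In the Hoxa cluster, which holds the progenitor factors Hoxa9 and Hoxa10, no gene was called and the median over 9 genes was -0.03. Hoxa4 was at 6.72 and 6.89 with retinoic acid, against 6.97 and 7.13 with DMSO. All 4 of its arrays were above the dim level and the groups did not overlap, but the difference of -0.25 ± 0.11 did not pass (limma adjusted p = 0.43). Hoxa7 was at 6.75 and 6.89 with retinoic acid, against 6.86 and 6.85 with DMSO, and differed by -0.03 ± 0.09. Hoxa10 was dimmer, at 5.49 and 5.68 with retinoic acid, against 5.80 and 5.71 with DMSO, and differed by -0.17 ± 0.10 (limma adjusted p = 0.578). Hoxa9, which drives leukaemia together with Meis1, differed by -0.16 ± 0.14, and 1 DMSO array, at 6.33, lay apart from the other at 5.97.

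In the Hoxc and Hoxd clusters, whose posterior genes pattern the limbs and the hind part of the body, no gene was called. Hoxd10 was at 7.01 and 7.13 with retinoic acid, against 6.94 and 6.65 with DMSO, all above the dim level. Its difference was 0.28 ± 0.13 (limma adjusted p = 0.447), with the nearest arrays of the groups 0.07 apart. Hoxc10 differed by 0.29 ± 0.18 (limma adjusted p = 0.575), carried by retinoic acid replicate 2 at 6.63, since the other retinoic acid array, at 6.14, was level with the DMSO arrays at 6.13 and 6.06. Hoxc5 was at 4.93 and 5.05 with retinoic acid, against 5.15 and 5.25 with DMSO, a difference of -0.21 ± 0.09. Hoxd12 was at 6.32 and 6.51 with retinoic acid, against 6.37 and 6.24 with DMSO, and the groups overlapped.

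Over all Hox genes the differences showed little order by paralogue number, while within the Hoxc cluster they were higher for the higher numbers. The median difference was 0.04 for the 10 genes of paralogue groups 1 to 4, -0.01 for the 11 genes of groups 5 to 8 and 0.09 for the 15 genes of groups 9 to 13. Spearman's rho between paralogue number and difference was 0.096 over 36 Hox genes. It was -0.58 in Hoxa (9 genes), -0.12 in Hoxb (10 genes), 0.85 in Hoxc (9 genes) and 0.00 in Hoxd (8 genes). These values are descriptions: the genes share the same 4 arrays, neighbours can share transcripts, and all Hoxc genes but Hoxc10 were under the dim level in both groups.

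Of the Meis genes, none was called. Meis1, the partner of Hox proteins in stem cells and megakaryocytes, was at 7.95 and 7.82 with retinoic acid, against 7.64 and 7.83 with DMSO. Its groups overlapped, and it differed by 0.15 ± 0.11 (limma adjusted p = 0.628). Meis3 was at 6.70 and 6.49 with retinoic acid, against 6.44 and 6.40 with DMSO, and differed by 0.18 ± 0.10. Meis2, a factor of limb and nervous system development, lay under the dim level at 5.92 on both retinoic acid arrays, against 5.93 and 5.99 with DMSO.

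The Pbx genes gave the lowest difference of all 42. Pbx3, a cofactor of Hoxa9 in leukaemia, was at 7.34 and 7.26 with retinoic acid, against 7.90 and 7.53 with DMSO. The groups did not overlap, but the DMSO arrays were 0.36 apart, and the difference of -0.42 ± 0.14 did not pass (limma adjusted p = 0.314; unadjusted p = 0.0338). It was -0.24 without DMSO replicate 1 and -0.60 without DMSO replicate 2. Pbx2, which is broadly expressed, was at 6.51 and 6.35 with retinoic acid, against 6.16 and 6.23 with DMSO, and differed by 0.23 ± 0.09 (limma adjusted p = 0.396). Pbx4 was at 6.63 and 6.54 with retinoic acid, against 6.62 and 6.54 with DMSO, and its 95% interval of the fold was 0.86 to 1.17.

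Over the 42 genes the median log2 difference was 0.02, beside 0.01 over all 22180 genes. Of the 42, 11 had both retinoic acid arrays above both DMSO arrays and 9 had both below, beside 25.0% and 23.0% of all genes. At an unadjusted p under 0.05, 2 were higher, Hoxb4 and Hoxb3, and 1 was lower, Pbx3, beside 7.55% and 7.58% of all genes. The median distance between replicates was 0.12 with retinoic acid and 0.09 with DMSO, beside 0.10 and 0.09 over all genes. The median size of the difference between treatments, taken between means of 2 arrays, was 0.10, beside 0.10 over all genes. For 38 of the 42 genes the 95% interval, not corrected for the number of genes, lay within a 1.5-fold change either way, and for 41 within a 2-fold change. Of all 22180 genes, 19203 had intervals within a 1.5-fold change and 21394 within a 2-fold change. Since RMA compresses the differences of dim genes, these intervals hold for the intensities and not for the RNA of genes under the dim level.

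**Figure D3:**
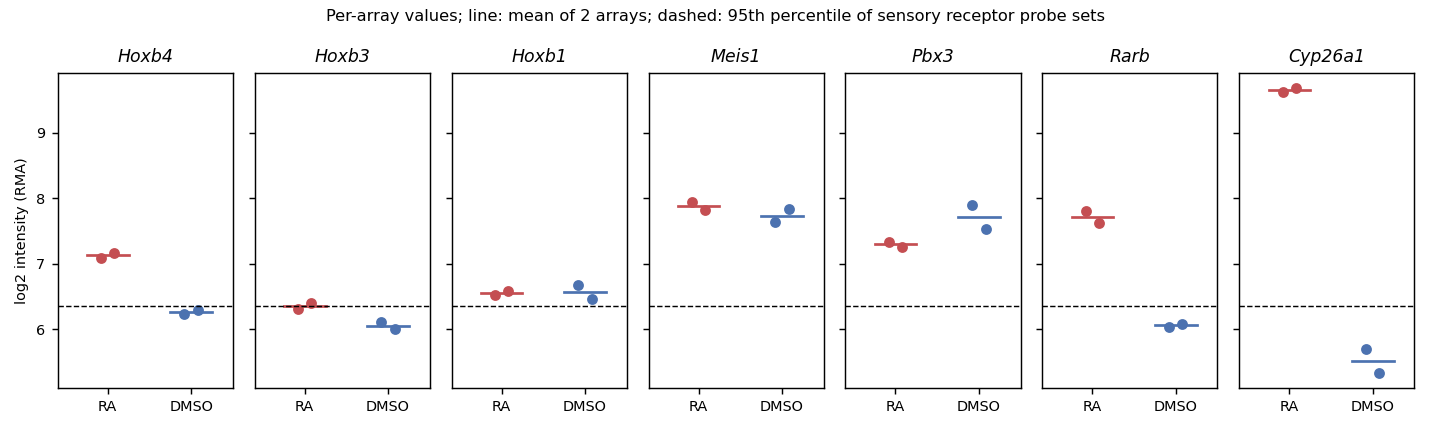
Log2 intensity (RMA) on each array for Hoxb4, Hoxb3, Hoxb1, Meis1 and Pbx3, and for the retinoic acid targets Rarb and Cyp26a1; points are arrays, solid lines the mean of the 2 arrays, and the dashed line the dim level of 6.35. Hoxb4, Rarb and Cyp26a1 lie above the dashed line with retinoic acid and under it with DMSO.

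Classical embryonic targets of retinoic acid outside the Hox clusters were set beside these families, from a list of 22 genes of which 19 were measured. Of these, 6 rose, none fell and 13 did not pass, beside 1.28% of all genes called higher, and the list was drawn up with earlier results of these data known. Cyp26a1, which degrades retinoic acid, was at 9.62 and 9.69 with retinoic acid, against 5.71 and 5.33 with DMSO, a 17.6-fold rise from under the dim level (limma adjusted p = 0.00282). Rarb, a retinoic acid receptor and textbook target, was at 7.80 and 7.62 with retinoic acid, against 6.04 and 6.08 with DMSO, a 3.13-fold rise, also from under the dim level (limma adjusted p = 0.00646). The others were Tgm2, a transglutaminase, Dhrs3, a retinal reductase, Nrip1, a corepressor of nuclear receptors, and Cyp26b1, a second hydroxylase, with log2 differences of 2.82, 2.66, 2.08 and 0.99. The count was 0 when retinoic acid replicate 1 was left out. It was 2 when retinoic acid replicate 2, DMSO replicate 1 or DMSO replicate 2 was. Cyp26b1 was also not called with the replicate number as a block (limma adjusted p = 0.0886).

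Among the 13 that did not pass were several regulators of development. Cdx1, a direct regulator of Hox genes in embryos, differed by -0.11 ± 0.16, the neural factor Pax6 by -0.06 ± 0.08 and Nr2f1 by 0.20 ± 0.08. At an unadjusted p under 0.05, 7 genes of the list were higher, the 6 called and Nr2f1 (limma adjusted p = 0.365). Only Crabp1 was lower at that threshold (-0.23 ± 0.08; limma adjusted p = 0.3265). Among all genes 7.55% were higher and 7.58% lower. Of the 13, 7 had neither group mean above the dim level. The median difference of the whole list was 0.06, beside 0.01 over all genes.

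Over all RefSeq windows of this kind, the receptor binding sequence was searched on both strands as AGGTCA, with the variants AGTTCA or else GGGTCA or else GGTTCA allowed, singly and as direct repeats spaced by 5, 2 or 1 bases. A repeat with a spacing of 5 was found in 29 of 32851 RefSeq promoter windows (0.0883%), those of Cyp26a1 and Rarb among them. The table held 27 windows for 25 of the 42 genes, and none had a repeat of any of the 3 spacings. At least 1 copy was found in 8 of the 27 (29.6%), Hoxb4 among them, beside 38.6% of all windows. The Pbx-Hox motif was found in 4 of the 27 (14.8%), beside 7.68% of all, and the Meis motif TGACAG in 2 (7.41%), beside 15.9%. Matches describe letters in these windows, and known retinoic acid response elements of Hox genes lie in enhancers farther away, which were not searched.

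The Polycomb group keeps Hox genes silent through methylation of histone H3 at lysine 27, and of 16 measured genes on a list of its members and of the enzymes that remove the mark, 2 fell, none rose and 14 did not pass, beside 1.79% of all genes called lower. At an unadjusted p under 0.05, 2 were lower, the same that were called, and 2 were higher, the Polycomb genes Rnf2 (0.25 ± 0.09; limma adjusted p = 0.352) and Phc1 (0.26 ± 0.10; limma adjusted p = 0.358). Kdm6b, a demethylase of this mark, was at 8.98 and 9.01 with retinoic acid, against 9.77 and 9.73 with DMSO, 1.68-fold lower (limma adjusted p = 0.0226). Its second, dimmer probe set differed by -0.08 ± 0.08. Jarid2, a partner of Polycomb repressive complex PRC2, was at 9.41 and 9.51 with retinoic acid, against 10.18 and 10.11 with DMSO, 1.60-fold lower (limma adjusted p = 0.0367). Ezh2, the methylase of the complex, was at 10.89 and 10.91 with retinoic acid, against 10.82 and 10.89 with DMSO, and differed by 0.05 ± 0.08. Neither Kdm6b nor Jarid2 was called when any 1 of the 4 arrays was left out, nor with the replicate number as a block or the constant probe sets kept.

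Of 14 genes of the MLL complex, its fusion partners, the Cdx factors and Ctcf, which promote or bound Hox transcription, limma called 0. At an unadjusted p under 0.05, 2 were lower, Aff1 and Mllt3 (-0.36 ± 0.11; limma adjusted p = 0.254), and 0 were higher. Among all genes 7.58% were lower and 7.55% higher at that threshold. Kmt2a, which encodes MLL, was at 9.65 and 9.67 with retinoic acid, against 9.59 and 9.66 with DMSO. The fusion partner Aff1 had the lowest difference of the list, -0.57 ± 0.08 (limma adjusted p = 0.0568). Of 12 other TALE genes and the Pbx-binding gene Pbxip1 together, limma called 0, and 0 had an unadjusted p under 0.05; their differences ran from -0.13 to 0.14.

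**Figure D4:**
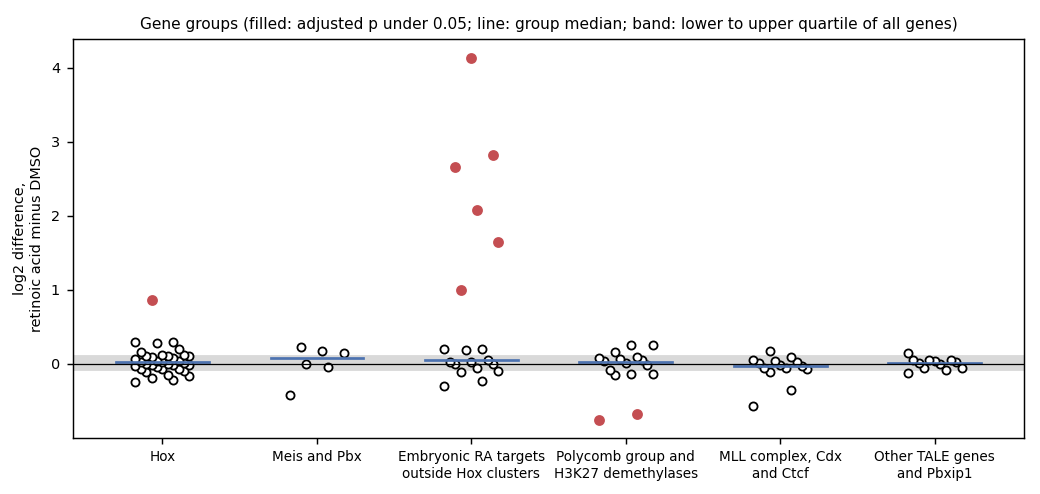
Log2 difference, retinoic acid minus DMSO, of each gene in 6 groups; filled points were called by limma, short lines are group medians and the grey band runs from the lower to the upper quartile of all genes. The Hox group has 1 filled point, Hoxb4, the embryonic targets have 6 above zero, and Kdm6b and Jarid2 are the 2 filled points below zero.

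Markers set the sample in context. All 10 monocyte genes examined were above the dim level in both groups, and their median difference was 0.18. At an unadjusted p under 0.05, 3 were higher, Itgam (0.66 ± 0.12), Fcgr1 (0.60 ± 0.12) and Cebpb (0.44 ± 0.10), and 2 were lower, Ccr2 (-0.34 ± 0.08) and Spi1. Of these limma called Spi1, a master factor of myeloid cells, which was 1.58-fold lower (adjusted p = 0.0438). That call was lost without any 1 array (0.163 to 0.256), with the replicate block (0.154), with the crossed block (0.0752) and with the constant probe sets kept (0.114).

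Markers of other cells were summed as linear intensities, and each sum was taken again without the gene that moved it most, a choice made after the values were seen. Of 9 markers of progenitors, cells in which Hoxb4, Hoxa9 and Meis1 are usually active, limma called 0 (1 at an unadjusted p under 0.05, Cd34, lower) and 8 were above the dim level in a group. Their sum was 2181 to 2229 with retinoic acid, against 2487 to 2560 with DMSO, and without Cd34 it was 1704 to 1732 with retinoic acid, against 1820 to 1845 with DMSO. Of 6 megakaryocyte markers limma called 0 (1 at an unadjusted p under 0.05, Pf4, lower), with overlapping sums of 709 to 790 with retinoic acid, against 733 to 816 with DMSO.

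All 9 neutrophil precursor markers were above the dim level with retinoic acid, and limma called 0 (1 at an unadjusted p under 0.05, Prtn3, higher). Their sum was 16335 to 17322 with retinoic acid, against 15096 to 15446 with DMSO. Prtn3 carried most of that, since without it the sums overlapped, at 13094 to 13674 with retinoic acid, against 13144 to 13237 with DMSO, and 5 of the other 8 markers had differences below zero. Of 9 stromal and endothelial markers 1 rose, the growth factor gene Kitl (7.06-fold from under the dim level; limma adjusted p = 0.00432, and 0.0612 and 0.0586 without DMSO replicate 1 and 2). Their sum was 866 to 903 with retinoic acid, against 672 to 680 with DMSO, and without Kitl the sums overlapped, at 634 to 714 with retinoic acid, against 643 to 650 with DMSO.

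Of 7 lymphoid markers limma called 0 (1 at an unadjusted p under 0.05, Il7r, with a difference of -1.44 ± 0.25). The lower lymphoid sum, 521 to 568 with retinoic acid, against 716 to 856 with DMSO, came from Il7r alone: without it the sum was 384 to 399 with retinoic acid, against 370 to 380 with DMSO. Of 3 erythroid markers limma called 0 (0 at an unadjusted p under 0.05), with sums of 166 to 182 with retinoic acid, against 165 to 167 with DMSO. No marker is listed at 0, and the part of these cell types in the values of Hoxb4 was not tested.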

How the data were processed

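The deposited values are linear intensities, 1 for each probe set on each array, made with Affymetrix Expression Console and RMA per the submitters' processing notes. Versions and genome build are not given in the sources used here. The arrays received labelled cDNA from 250 ng of RNA, per the labels' protocols. The intensities were transformed to log2 and not normalized again. Of 41345 probe sets, 25335 were listed in the platform annotation, 23521 with 1 symbol and 1814 with several. The brightest probe set stood for a gene with several. All 4 arrays were fitted with limma (version 3.58.1, R 4.3.3; lmFit and eBayes, two-sided, no covariates) without 1625 constant probe sets, 1624 of them at 4.78, and tested on simulated data. The members, lists, dim level and this exclusion were chosen with earlier results of these data known. Named members were those called, those above the dim level in a group, Hox paralogues 1 and 2, the 5 largest differences each way, and Meis and Pbx genes; Hoxa9 was named after its values were seen. Deviations of same-numbered arrays from their group means correlated at -0.25, and nothing in the labels pairs them, so the replicate block was an alternative. Other alternatives were another variance prior, normalization, filter and pseudocount (16), and leaving out each array.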

Additional observations from a re-analysis of the deposited data

How the results depend on the processing

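The difference of Hoxb4 stayed positive, from 0.75 to 0.90, in all settings tried. The number of member probe sets called higher was 1 in the test used and 0 with the constant probe sets kept, with the replicate block, with the crossed replicate block and without any 1 array; no member was called lower in any setting. All probe sets called numbered 359 higher and 472 lower. With the constant probe sets kept they were 0 and 0 (702 at an adjusted p under 0.1), where limma's prior degrees of freedom were 0.898, against 2.76 without them. With only probe sets of 1 symbol they were 757 and 879, and with only those above the dim level 554 and 681. With the replicate block they were 73 and 88. With the crossed replicate block, added after seeing the data, they were 194 and 263. Without 1 array they ran from 12 to 30 higher and from 13 to 25 lower. The 6 embryonic targets called were 0 with the constant probe sets kept and 0 to 2 without 1 array. The 2 genes of the Polycomb list called were 0 with the constant probe sets kept, the replicate block, the crossed block or without any 1 array. Members above the dim level numbered 2 with the 99th percentile and 42 with the median of receptor probe sets in place of 15. Fits without 1 array hold fewer samples; for the others the cause was not tested. The median over members ran from -0.007 to 0.058. Most Hox genes were dim in both groups, and RMA understates differences of dim genes.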

Other observations

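Genes that border the Hox clusters and non-coding genes inside them were also measured. Of 9 bordering genes limma called 0 (1 at an unadjusted p under 0.05, Lnpk). Skap2, which lies beyond the 3′ end of the Hoxa cluster, was at 11.33 and 11.23 with retinoic acid, against 11.22 and 11.24 with DMSO, far above the dim level, and differed by 0.06 ± 0.08 (log2, SE). Of 7 non-coding genes with a probe set of their own, among them Hotair and Mir10b, limma called 0 (0 at an unadjusted p under 0.05), and their differences ran from -0.10 to 0.11.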
